A study of Mus musculus with 12 samples.

Results

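The 32 genes described here are neighbours on mouse chromosome 2, between 166805588 and 172382448 (GRCm38, the assembly of the build mm10), a span of 5.58 Mb from Arfgef2 to Cstf1. They were chosen because RNA from this stretch had been seen to be lower in both Bcat1 knockout clones than in wild type (WT), so their difference from WT in either clone is a description and carries no test. Of the 32, 31 had a row among the 52535 genes of the count files, and Bcas4 was not analysed here. Of the 31, 28 passed the filter on low counts, among 14946 genes tested. Sall4 and Cebpb lie inside the stretch but are not among the 32, and they appear below only as neighbours.

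The libraries came from E14, a mouse embryonic stem cell line, grown with serum, LIF (the cytokine that blocks their differentiation) and 2i (a pair of kinase inhibitors that serves the same end). KO1 was Bcat1-KO clone 1, KO2 was Bcat1-KO clone 2 and WT carried no knockout, and each group had 2 libraries. Each knockout group was thus a single clone, and the labels do not say how the knockout was made or whether both libraries of a group came from separate cultures. If they did not, the p-values cover technical spread alone. RNA was sequenced after removal of ribosomal RNA. Gene counts totalled 12116149 and 12618319 in KO1, 11976149 and 12864573 in KO2, and 13294805 and 13923262 in WT.

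Levels are given as CPM, counts per 1000000 gene counts with edgeR's TMM scaling, and, where genes are compared with each other, as RPKM, that is CPM per kilobase of exons. Bcat1, on chromosome 6, had 617 and 662 CPM in KO1, 583 and 579 CPM in KO2, and 602 and 614 CPM in WT, so its RNA level gave no check of the knockout labels. The stem cell markers Pou5f1, Sox2, Nanog, Zfp42 and Esrrb were all abundant, with summed levels of 3078 to 3265 CPM in KO1, 3248 to 3264 CPM in KO2 and 3361 to 3551 CPM in WT. Other lineages were low. Summed over 5 markers each, fibroblast genes reached at most 33.5 CPM in KO1, 21.0 CPM in KO2 and 23.9 CPM in WT. Trophoblast genes reached 28.8, 18.2 and 40.0 CPM, neural genes 53.3, 46.0 and 51.3 CPM, and primitive endoderm genes 4.60, 3.38 and 2.66 CPM, in the same order of groups. Within the trophoblast list Cdx2 had 2.30 and 1.46 CPM in KO1, 6.33 and 3.48 CPM in KO2, and 28.9 and 22.3 CPM in WT, while Eomes and Krt7 were higher than WT in KO1, by 0.92 ± 0.17 and 1.56 ± 0.47 on the log2 scale. No marker was at 0 in all libraries. The part of these shifts in the results was not tested. The KO1 libraries differed more from each other than those of the other groups, as a chi-square per gene of 8.79, against 3.27 in KO2 and 3.57 in WT, shows.

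A mammalian autosome is present as a pair, and for most genes both copies are transcribed, so the RNA of a gene tends to follow the number of its copies and the activity of each. RNA counts measure the sum over both copies. A log2 fold change of -1 is a ratio of 0.5. The genes of this stretch have little in common by function. They include regulators of nuclear export, of ubiquitin chains, of cell polarity and of mitosis, zinc finger factors and metabolic enzymes, and most are active in many cell types. Their counterparts in human form a conserved block that is often gained in tumours, where AURKA and ZNF217 are the genes best known from it. DNA copy number was not measured in these libraries.

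Because the members were chosen by position and by moving together, the bases just before 4 of their starts are shown first. They come from RefSeq, with build GRCm38.p6, each 250 bases long and written 5′ to 3′ on the strand of the gene. Capitals mark a GC box (GGGCGG or its reverse complement CCGCCC) or a CCAAT box (CCAAT or ATTGG), and no matches overlap in these windows. Arfgef2 (chr2:166805331-166805580, plus strand) is the first member and was nearly level with WT. Ptpn1 (chr2:167932077-167932326, plus strand) was at less than 0.5 of its WT level in both clones. GENCODE places the start of Ptpn1 at 167932057, so by that annotation the window lies inside the gene. Mocs3 (chr2:168230372-168230621, plus strand) starts 242 bases from the divergent gene Dpm1 by RefSeq, and both were low. The start of Dpm1 lies inside that window, at 168230379 by RefSeq and at 168230591 by GENCODE. Aurka (chr2:172370571-172370820, minus strand) starts 432 bases from the divergent gene Cstf1 by RefSeq, near the other end. GENCODE places the start of Cstf1 at 172370681, inside that window.
Arfgef2: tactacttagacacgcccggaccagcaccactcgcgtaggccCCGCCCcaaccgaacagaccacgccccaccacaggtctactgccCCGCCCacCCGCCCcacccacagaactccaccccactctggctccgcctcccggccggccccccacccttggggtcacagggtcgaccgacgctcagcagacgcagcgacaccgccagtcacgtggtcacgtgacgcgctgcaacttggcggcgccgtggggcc
Ptpn1: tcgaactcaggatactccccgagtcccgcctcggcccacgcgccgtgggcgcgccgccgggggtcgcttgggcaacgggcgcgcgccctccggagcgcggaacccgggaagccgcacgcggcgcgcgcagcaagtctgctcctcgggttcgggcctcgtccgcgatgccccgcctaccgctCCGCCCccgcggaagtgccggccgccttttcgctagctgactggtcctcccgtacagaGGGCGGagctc
Mocs3: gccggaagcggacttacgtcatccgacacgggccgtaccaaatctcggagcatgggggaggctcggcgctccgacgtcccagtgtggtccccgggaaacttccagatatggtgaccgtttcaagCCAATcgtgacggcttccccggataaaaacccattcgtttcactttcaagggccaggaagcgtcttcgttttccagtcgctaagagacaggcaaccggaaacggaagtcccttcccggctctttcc
Aurka: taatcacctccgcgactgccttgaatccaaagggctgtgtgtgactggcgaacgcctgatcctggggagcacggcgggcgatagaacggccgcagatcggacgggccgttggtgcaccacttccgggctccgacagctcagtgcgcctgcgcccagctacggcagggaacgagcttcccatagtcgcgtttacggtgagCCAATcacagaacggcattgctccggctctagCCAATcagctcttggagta
The Arfgef2 window holds 3 GC boxes and the Ptpn1 window 2, with no CCAAT box in either. The Mocs3 window holds 1 CCAAT box and the Aurka window 2, with no GC box. None of the 4 holds TATAAA on either strand.

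RefSeq windows were available for 24 of the 31 members, 32 windows in all. Missing were Bcas1, Cse1l, Cyp24a1, Dok5, Kcng1, Ptgis and Tmem189. A GC box lay in 20 of the 32 windows, 62.5%, against 32.7% of all 32851 mouse promoter windows. CCAAT lay in 9 of them, 28.1% against 33.8%, and TATAAA in 1, 3.12% against 12.4%. The ratio of observed to expected CpG had a median of 0.832 in the members' windows and 0.373 in all windows. It was at least 0.6 in 71.9% of the members' windows and in 34% of all windows. The comparison set holds the promoters of all annotated genes, whether or not stem cells use them, and several members contribute more than 1 window. These are counts of letters, and no binding was measured.

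Taken as a block, the 31 members supplied 0.198% and 0.196% of gene counts in KO1, 0.203% and 0.197% in KO2, and 0.306% and 0.310% in WT. In bulk RNA, fewer cells of a kind and less RNA per cell cannot be told apart. Against WT, edgeR's quasi-likelihood test at an adjusted p of 0.05 placed 21 of the 28 tested members lower in KO1, 1 higher and 6 in neither direction. Over all genes 9.53% were called lower in KO1 and 12.4% higher. In KO2 21 were lower, 0 higher and 7 in neither direction. The count of 0 held at an unadjusted p of 0.05 and with DESeq2, and over all genes 7.81% were called lower in KO2 and 10.1% higher. Since the members were picked for this difference, nothing is read from these counts. Both clones were compared with the same WT libraries. The number called lower in both clones was 20, where 3.30% of all genes were. In 24 members all 4 knockout libraries lay below both WT libraries, as they did for 16.7% of all genes.

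The median log2 fold change of the tested members was -0.76 in KO1, a ratio of 0.589, and -0.79 in KO2, a ratio of 0.580. The median over all genes was -0.00 in each clone. Sizes were spread around these medians rather than set at a single value. In KO1, 1 member had a ratio under 0.4, 13 from 0.4 to 0.6, 9 from 0.6 to 0.8, and 5 at 0.8 or more. In KO2 the same bands held 4, 13, 6 and 5 members. The label of a stretch lowered in both clones therefore holds for most members and not for all. Arfgef2, Fam210b and Cstf1 stood at ratios of 0.872 to 1.02, Bcas1 had log2 fold changes above 0 in both clones, and Kcng1 was above WT in both KO1 libraries and below it in both KO2 libraries.

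**Figure D1:**
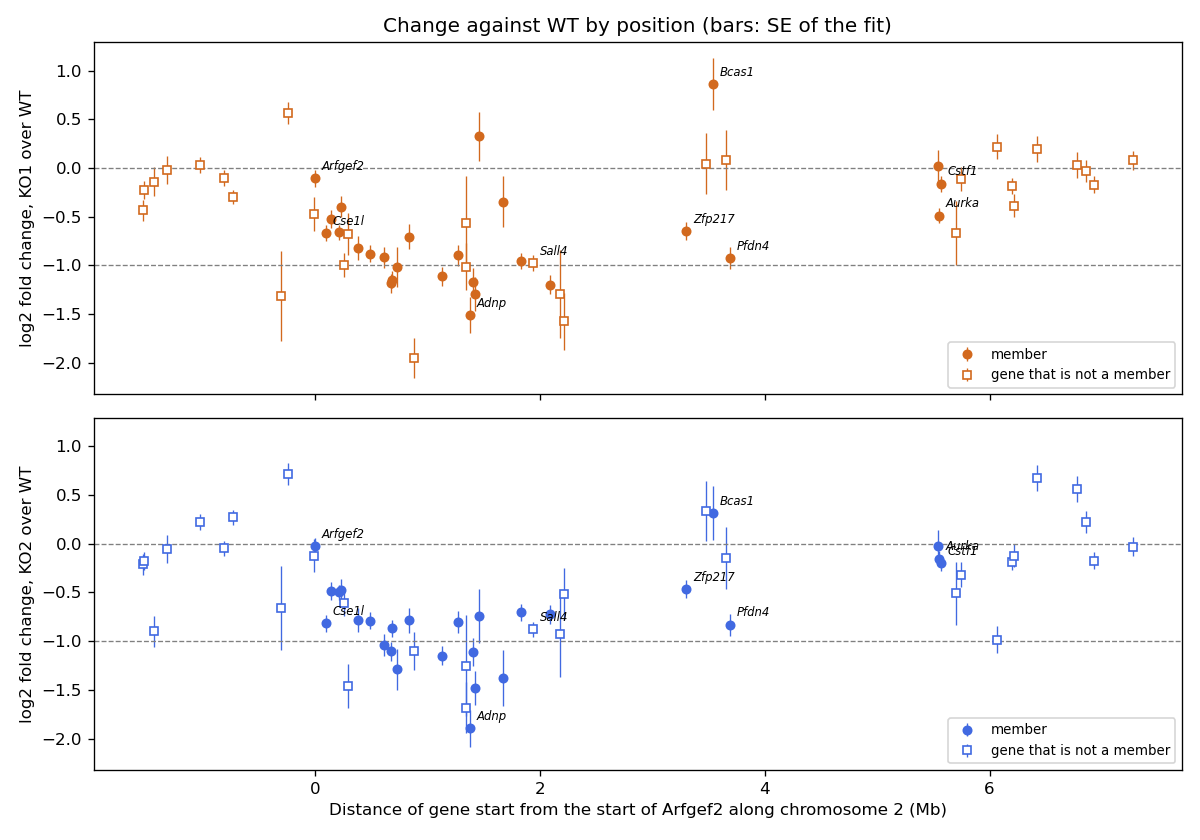
Log2 fold change against WT (y axis, KO1 above and KO2 below) by distance of each gene's start from the start of Arfgef2 in Mb (x axis), for genes of mean CPM of 1 or more. Filled circles are members, open squares are other genes, bars are the standard error of the fit, and dashed lines mark 0 and -1. Most genes from Cse1l to Zfp64 lie between the dashed lines or near the lower one, and Arfgef2, Fam210b and Cstf1 lie near 0.

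The position plot sets the changes in gene order. It does not locate where the lower levels ended, since no tested member lies between Pfdn4 and Fam210b. Arfgef2 (166805588 to 166898052), an exchange factor that activates Arf GTPases of the Golgi, is the first member and had 151 and 132 CPM in KO1, 151 and 148 CPM in KO2, and 149 and 155 CPM in WT. The groups overlapped, with log2 fold changes of -0.10 ± 0.09 (SE) in KO1 and -0.02 ± 0.09 in KO2. Cse1l (166906040 to 166946389), the next member, starts 0.00799 Mb after Arfgef2 ends. It had 328 and 288 CPM in KO1, 282 and 273 CPM in KO2, and 515 and 463 CPM in WT. All 4 knockout libraries lay below both WT libraries, with log2 fold changes of -0.67 ± 0.09 in KO1 and -0.82 ± 0.09 in KO2.

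From Cse1l to Pfdn4, 3.61 Mb, lie 24 tested members. Their median log2 fold change was -0.89 in KO1 (ratio 0.540) and -0.81 in KO2 (ratio 0.570). All 19 of these with a mean of 10 CPM or more were called lower in each clone. Over all genes of that level, 13.4% were called lower in KO1 and 9.02% in KO2. Since the members were picked for this difference, nothing is read from the count. The log2 fold changes of the 19 ran from -1.29 to -0.40 in KO1 and from -1.48 to -0.46 in KO2. After Pfdn4 there are 1.83 Mb before Fam210b, with only Dok5 as a member between them. Dok5, an adaptor of receptor tyrosine kinases, was too rare to test. It had 2 counts over both KO1 libraries, 3 over both KO2 libraries and 18 over both WT libraries (5 and 13). The ratio to WT was 0.115 in KO1 (95% counting interval 0.0129 to 0.480) and 0.180 in KO2 (0.0340 to 0.618), where the intervals are exact and cover counting error only.

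At the far end lie Fam210b, Aurka and Cstf1. Aurka was called lower in KO1, at -0.49 ± 0.08 on the log2 scale, and not in KO2, at -0.15 ± 0.08. Fam210b, a mitochondrial protein known from red cell precursors, had 12.3 and 14.1 CPM in KO1, 11.9 and 13.6 CPM in KO2, and 13.3 and 12.7 CPM in WT. These groups overlapped, and the log2 fold changes of 0.02 ± 0.16 in KO1 and -0.02 ± 0.16 in KO2 were among the 3 smallest in size of the tested members in each clone. Cstf1 (172370681 to 172382448), a subunit of the factor that stimulates cleavage of RNA before the poly(A) tail is added, had 107 and 113 CPM in KO1, 109 and 105 CPM in KO2, and 120.4 and 125 CPM in WT. Its knockout values were all below WT, by -0.16 ± 0.08 in KO1 and -0.20 ± 0.08 in KO2 on the log2 scale, and it was called in neither clone.

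As a group, genes outside the ends had medians closer to WT, though single genes there were as low as members. The 10 tested genes of at least 1 CPM before Arfgef2 had a median log2 fold change of -0.19 in KO1 and -0.09 in KO2, and the 10 after Cstf1 had -0.07 in KO1 and -0.15 in KO2. In KO2, Zfp334 before the stretch had -0.90 ± 0.16 and Bmp7, a growth factor gene after it, -0.98 ± 0.14, both below the member median, against -0.14 ± 0.15 and 0.22 ± 0.13 in KO1. In KO1, Gm14267 before the stretch had -1.32 ± 0.46. Just before Arfgef2, Trp53rkb had -0.47 ± 0.18 in KO1 and -0.12 ± 0.17 in KO2, and Prex1, an exchange factor for Rac, had 0.56 ± 0.11 and 0.72 ± 0.11. Just after Cstf1, the processed pseudogene Gm14303 had -0.67 ± 0.33 in KO1 and -0.51 ± 0.32 in KO2 and was called in neither. Its libraries stood far apart, at 13.4 and 39.0 CPM in KO1 and 18.7 and 39.8 CPM in KO2, against 39.0 and 44.4 CPM in WT. Tfap2c, a transcription factor of the trophoblast and germline, had -0.11 ± 0.12 in KO1 and -0.32 ± 0.12 in KO2. Of 1124 other tested genes on chromosome 2, 9.34% were called lower in KO1 and 9.25% in KO2, close to the shares over all genes.

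The 11 tested genes that lie between the ends without being members had similar values, with a median of -0.98 in KO1 and -0.93 in KO2 on the log2 scale. Of these, edgeR called 7 lower in KO1 and 5 in KO2, and called no other. Over all genes 9.53% were called lower in KO1 and 7.81% in KO2. The values of Sall4, a transcription factor needed for stem cell identity, were 195 and 221 CPM in KO1, 221 and 225 CPM in KO2, and 405 and 415 CPM in WT. Its log2 fold change was -0.98 ± 0.08 in KO1 and -0.88 ± 0.08 in KO2, against -0.96 and -0.70 for the member before it, Atp9a, and -1.20 and -0.72 for the member after it, Zfp64. Cebpb, a leucine zipper factor, had 4.28 and 4.07 CPM in KO1, 6.67 and 8.38 CPM in KO2, and 14.3 and 18.0 CPM in WT. In KO1 its log2 fold change of -1.95 ± 0.21 was below that of every tested member. In KO2 it was -1.10 ± 0.19, and the difference between the clones passed the test (KO2 over KO1 0.85 ± 0.22, adjusted p 0.0165, edgeR).

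**Figure D2:**
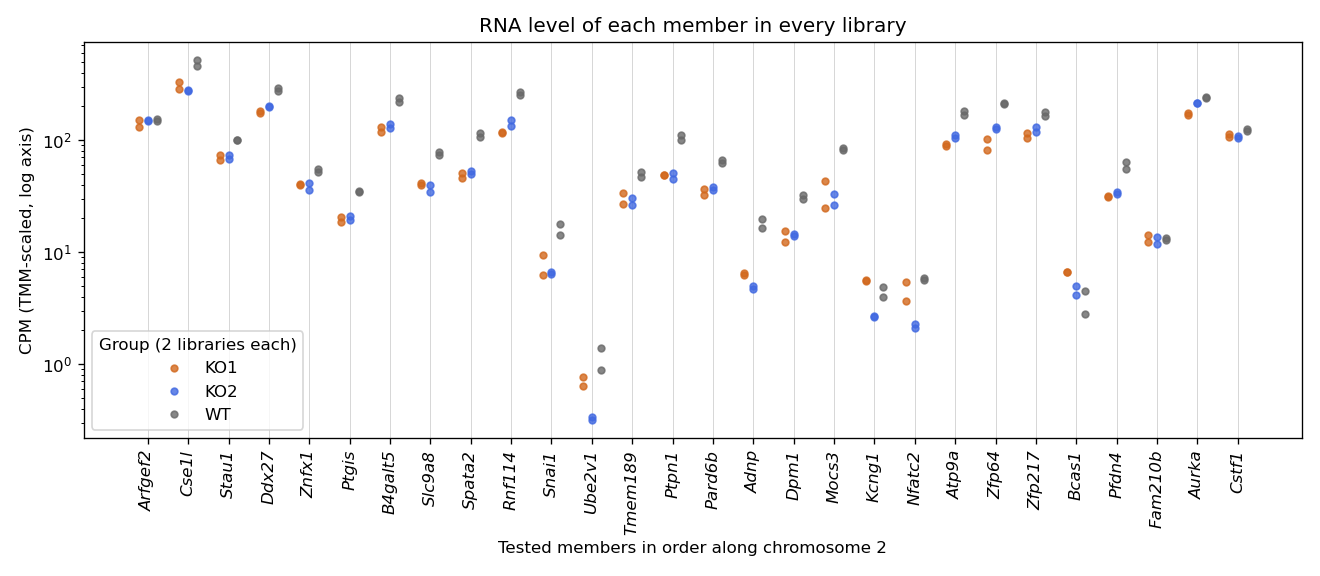
CPM on a log axis (y) of the 28 tested members in chromosome order (x), with a point for each of the 2 libraries of KO1, KO2 and WT. From Cse1l to Pfdn4 the WT points stand above the knockout points for most members, and for Arfgef2 and Fam210b the groups lie together.

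Among members of nuclear transport, vesicle traffic and glycosylation, 4 of 5 tested were called lower in each clone, all but Arfgef2. Beside this and the groups below, 9.53% of all genes were called lower in KO1 and 7.81% in KO2. The members were picked for being lower, so nothing is read from the counts of any group. Per kilobase, Cse1l was the most abundant of the transport group. Its mean levels were 58.4 RPKM in KO1, 52.6 RPKM in KO2 and 92.7 RPKM in WT. Its product is the exportin that returns importin alpha to the cytoplasm after cargo release. B4galt5, a galactosyltransferase that makes lactosylceramide, had 118 and 131 CPM in KO1, 138 and 127 CPM in KO2, and 220.3 and 237 CPM in WT. Its log2 fold changes of -0.88 ± 0.09 in KO1 and -0.79 ± 0.09 in KO2 left the clones together, well below WT. Atp9a, a lipid transporter of endosomes, had 88.4 and 92.9 CPM in KO1, 112 and 104 CPM in KO2, and 169 and 183 CPM in WT, with ratios of 0.516 in KO1 and 0.614 in KO2. Dpm1, the catalytic subunit of dolichol phosphate mannose synthase, had 15.3 and 12.2 CPM in KO1, 13.8 and 14.6 CPM in KO2, and 32.2 and 29.5 CPM in WT. Its ratio to WT was 0.446 in KO1 and 0.462 in KO2, the lowest of this group in each clone. By exon, 12% of Dpm1 is shared with Gm20716, a readthrough gene on the same strand that was listed at 0 counts.

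RNA-binding members had smaller log2 fold changes than the median member. Of 4 tested, 3 were called lower in each clone, with a group median of -0.46 in KO1 and -0.48 in KO2. Stau1, which binds double-stranded RNA and guides transport and decay of mRNA, had 73.0 and 66.2 CPM in KO1, 74.2 and 68.5 CPM in KO2, and 99.9 and 100.0 CPM in WT. Ddx27, a helicase of ribosome assembly, had 174 and 182 CPM in KO1, 197 and 201 CPM in KO2, and 273 and 289 CPM in WT. Znfx1, an RNA helicase of antiviral defence, had 40.1 and 40.7 CPM in KO1, 41.1 and 35.7 CPM in KO2, and 54.7 and 51.8 CPM in WT. The knockout libraries were below WT for each of these genes. The ratios to WT were 0.696, 0.632 and 0.759 in KO1 and 0.714, 0.707 and 0.722 in KO2 for Stau1, Ddx27 and Znfx1 in that order. Znfx1 was no longer called lower in both clones without KO2 replicate 2 or without either WT library.

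The ubiquitin group held Spata2 and Rnf114, whose exons overlap by 129 bases on opposite strands. Spata2, which bridges the deubiquitinase Cyld to the complex that builds linear ubiquitin chains, had 51.0 and 46.3 CPM in KO1, 50.3 and 52.7 CPM in KO2, and 107 and 115 CPM in WT. Its log2 fold change was -1.18 ± 0.10 in KO1 and -1.10 ± 0.10 in KO2, so that the clones lay together at ratios of 0.440 and 0.466. Rnf114, a RING-type ubiquitin ligase, had 119 and 116 CPM in KO1, 152 and 133 CPM in KO2, and 253 and 267 CPM in WT, with ratios of 0.451 in KO1 and 0.547 in KO2. Ube2v1, the catalytically inactive partner of the conjugating enzyme Ube2n, had 8 and 10 counts in KO1, 4 and 4 in KO2, and 18 and 12 in WT. It was called in neither clone. Its level is uncertain, because 61.5% of its exonic bases are shared with the readthrough gene Gm20431, which was listed at 0 counts.

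Of the DNA-binding and chromatin factors, 4 of 5 tested were called lower in KO1 and 5 of 5 in KO2. The group medians of -1.02 in KO1 and -1.29 in KO2 were below those of all members. In KO2 this rested on Adnp, Nfatc2 and Snai1, whose mean levels were 9.77, 4.15 and 10.1 CPM. The more abundant Zfp64 and Zfp217 had -0.72 and -0.46 in KO2, above the member median of -0.79. The group median is therefore not given as a trait of DNA-binding factors. Adnp (168180986 to 168207112), a homeodomain protein that joins Chd4 and heterochromatin proteins in a repressive complex, had 6.50 and 6.21 CPM in KO1, 4.73 and 4.98 CPM in KO2, and 19.8 and 16.5 CPM in WT. Its log2 fold changes, -1.51 ± 0.18 in KO1 and -1.90 ± 0.19 in KO2, were the lowest of any tested member in either clone. Its exons are shared with Gm20716 over 82.1% of their bases, and reads there may have been assigned to neither gene, so its level is uncertain. Reads that could not be assigned to a single gene made up 6.96% and 9.10% of all reads in KO1, 7.62% and 8.49% in KO2, and 8.40% and 8.73% in WT, and their part in this value was not tested. Zfp217, a zinc finger factor found with the demethylase Kdm1a and its cofactor Rcor1, had 115 and 105 CPM in KO1, 132 and 118 CPM in KO2, and 165 and 179.7 CPM in WT. Snai1, a repressor of epithelial genes, had 6.19 and 9.51 CPM in KO1, 6.67 and 6.33 CPM in KO2, and 14.1 and 17.7 CPM in WT. Both genes were below WT in all knockout libraries, with ratios for Zfp217 of 0.638 in KO1 and 0.725 in KO2, and for Snai1 of 0.495 and 0.409. Zfp217 was no longer called lower in both clones without KO2 replicate 2, nor Snai1 without WT replicate 2. Tshz2, a zinc finger homeobox gene, had 1 count in each group and was not tested.

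Kinases, phosphatases and polarity proteins were represented by Ptpn1, Pard6b and Aurka, of which 3 of 3 were called lower in KO1 and 2 of 3 in KO2. Ptpn1 (167932057 to 167979385), a tyrosine phosphatase that acts on the insulin receptor, had 48.8 and 49.2 CPM in KO1, 45.1 and 50.4 CPM in KO2, and 101 and 110.4 CPM in WT. Each clone was below 0.5 of the WT level, with ratios of 0.463 in KO1 and 0.451 in KO2. Pard6b, a scaffold of the apical polarity complex, had 36.9 and 32.4 CPM in KO1, 37.8 and 36.1 CPM in KO2, and 63.1 and 65.8 CPM in WT. Its ratios were 0.537 in KO1 and 0.573 in KO2.

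Of the metabolic enzymes, 3 of 3 tested were called lower in each clone. Mocs3 (168230622 to 168232594), a sulfurtransferase that serves molybdenum cofactor synthesis and the modification of transfer RNA through Urm1, had 24.8 and 43.1 CPM in KO1, 26.5 and 33.2 CPM in KO2, and 80.9 and 85.8 CPM in WT. Its ratios, 0.408 in KO1 and 0.359 in KO2, were the lowest after those of Adnp among members of at least 10 CPM on average in WT. The KO1 libraries stood further apart for Mocs3 than the WT libraries did. Tmem189, the desaturase of plasmalogen synthesis, had 27.0 and 33.4 CPM in KO1, 26.5 and 30.7 CPM in KO2, and 47.1 and 51.4 CPM in WT. Of its exonic bases, 21.3% are shared with the readthrough gene Gm20431 and 9.56% with Cebpb on the opposite strand, so its level is uncertain. Ptgis, which makes prostacyclin, had 18.7 and 20.6 CPM in KO1, 19.5 and 20.9 CPM in KO2, and 34.3 and 35.3 CPM in WT. For both genes the clones were within 0.08 of each other on the log2 scale, at ratios of 0.614 and 0.581 for Tmem189 and of 0.565 and 0.581 for Ptgis. Cyp24a1, which breaks down vitamin D, had 0 counts in KO1, 0 in KO2 and 1 in WT, so no ratio is given.

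Transport and folding members differed among themselves. Slc9a8, a sodium and proton exchanger of the Golgi, had 41.3 and 39.4 CPM in KO1, 39.8 and 34.2 CPM in KO2, and 78.2 and 73.8 CPM in WT. Pfdn4, a subunit of the prefoldin chaperone, had 31.9 and 30.9 CPM in KO1, 32.7 and 34.4 CPM in KO2, and 64.1 and 55.2 CPM in WT. Both were below WT in all knockout libraries. Ratios for Slc9a8 were 0.531 in KO1 and 0.487 in KO2, and for Pfdn4 0.526 and 0.562. Of the exonic bases of Pfdn4, 25.4% are shared with Gm16796 on the opposite strand, which was listed at 1 count. The level of Pfdn4 is therefore uncertain. Bcas1, a gene of myelinating cells, lies between Zfp217 and Pfdn4 and went the other way. It had 6.66 and 6.60 CPM in KO1, 4.98 and 4.11 CPM in KO2, and 2.78 and 4.51 CPM in WT, so that KO1 lay above WT while KO2 and WT overlapped. Its log2 fold change was 0.86 ± 0.27 in KO1 and 0.31 ± 0.28 in KO2. All genes under 10 CPM, where Bcas1 lies, had a median of 0.22 in KO1, with 15.4% called higher and 3.25% lower. The higher call of Bcas1 in KO1 was lost with DESeq2, without WT replicate 1, and with both clones pooled. On either side of it lie the processed pseudogenes Gm14270 and Gm14269, of 2.98 and 3.67 CPM on average. They had 0.04 ± 0.32 and 0.09 ± 0.31 in KO1 and 0.33 ± 0.31 and -0.14 ± 0.32 in KO2. Neither was called in either clone, and no local pattern is read from such low levels.

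The comparison of the clones with each other was not itself used to choose the members, and it was tested gene by gene. The choice did ask for levels below WT in both clones, which favours genes that are alike in both. The share called and the median difference of the members are therefore a description. Of 28 tested members, 3 were higher in KO2 than in KO1, 2 were lower, and 23 were not called (edgeR's quasi-likelihood test, adjusted p under 0.05). Over all genes 6.62% were called higher, 7.71% lower and 14.3% either way, so the members' 17.9% is close to the background. The median member difference was 0.00, with a range of -1.08 to 0.47 on the log2 scale.

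Zfp64, a zinc finger gene, had the smallest adjusted p. It had 125 and 131 CPM in KO2, 81.8 and 102 CPM in KO1, and 208 and 215 CPM in WT. The KO2 libraries lay above the KO1 libraries and both below WT, with a log2 fold change of KO2 over KO1 of 0.47 ± 0.10 (95% interval 0.26 to 0.68, adjusted p 0.00358, edgeR). Over the alternatives that adjusted p ran from 5.89e-10 to 0.0451. Against WT its ratio was 0.605 in KO2 and 0.436 in KO1.

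Aurka (172356190 to 172370535), the mitotic kinase of the spindle poles, had 216 and 216 CPM in KO2, 167 and 175 CPM in KO1, and 242 and 238 CPM in WT. The 3 groups did not overlap. The log2 fold change of KO2 over KO1 was 0.34 ± 0.08 (0.17 to 0.50, adjusted p 0.00716, edgeR), and the adjusted p was 0.101 without KO2 replicate 1 and 0.0843 without KO2 replicate 2. Its divergent neighbour Cstf1 differed by -0.04 ± 0.08 (-0.21 to 0.14). Rnf114, described above, was higher in KO2 by 0.28 ± 0.09 (0.10 to 0.46, adjusted p 0.0406, edgeR), a call kept in 7 of 14 alternatives and lost, among others, without either KO2 library and with DESeq2 (range of the adjusted p 0.00797 to 0.452).

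Kcng1, a potassium channel subunit that modifies other channels, had 2.62 and 2.69 CPM in KO2, 5.55 and 5.60 CPM in KO1, and 4.01 and 4.87 CPM in WT. The KO2 libraries were below the other groups, with a log2 fold change of KO2 over KO1 of -1.07 ± 0.27 (-1.63 to -0.50, adjusted p 0.0126, edgeR). Its log2 fold change against WT was -0.74 ± 0.27 in KO2 and 0.33 ± 0.25 in KO1. Nfatc2, a factor that enters the nucleus when calcineurin removes its phosphates, had 2.11 and 2.29 CPM in KO2, 3.65 and 5.37 CPM in KO1, and 5.86 and 5.61 CPM in WT. The difference of KO2 over KO1 was -1.03 ± 0.30 (-1.66 to -0.40, adjusted p 0.0276, edgeR). Both calls were lost without KO2 replicate 1 and without KO2 replicate 2, and that of Nfatc2 also without KO1 replicate 2, with DESeq2 and with the 4 libraries of the clones alone (range of the adjusted p 0.00404 to 0.184).

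**Figure D3:**
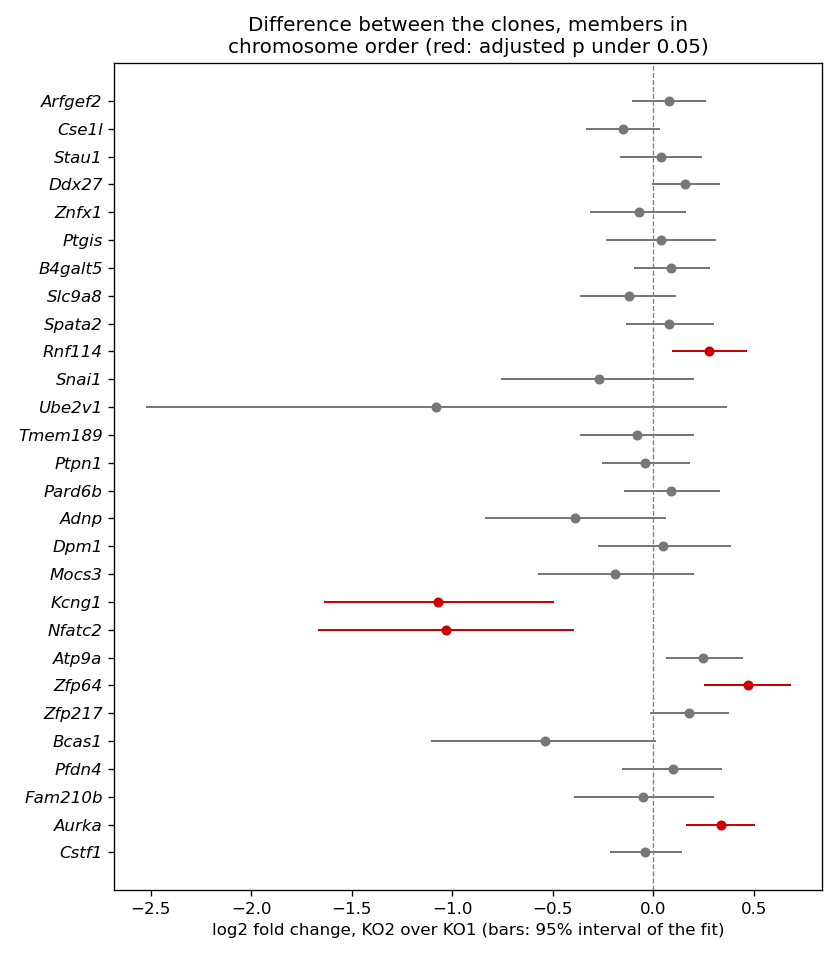
Log2 fold change of KO2 over KO1 (x axis) for the 28 tested members in chromosome order (y axis), where points are estimates, bars are 95% intervals of the fit, and red marks an adjusted p under 0.05. Rnf114, Zfp64 and Aurka lie above 0, Kcng1 and Nfatc2 lie below it, and the wide bar of Ube2v1 reflects its few counts.

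For the members that were not called between the clones, the intervals show how large a difference these libraries allow. For Ptpn1 the log2 fold change of KO2 over KO1 was -0.04 (-0.25 to 0.18), for Spata2 0.08 (-0.13 to 0.30), for Cse1l -0.15 (-0.33 to 0.03) and for B4galt5 0.09 (-0.09 to 0.28). For Adnp it was -0.39 (-0.83 to 0.06) and for Ube2v1 -1.08 (-2.52 to 0.36), which leave room for larger differences. Atp9a, at 0.25 (0.07 to 0.44, adjusted p 0.0642, edgeR), missed the threshold after adjustment.

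The difference between the clones followed the level of the gene. All 5 tested members with a mean under 10 CPM (Kcng1, Nfatc2, Ube2v1, Bcas1 and Adnp) were lower in KO2 than in KO1 in their estimates, with a median of -1.03. Of the 23 members at 10 CPM or more, 14 had a positive estimate, with a median of 0.05. Across the 28 members, the log2 difference correlated with log2 WT CPM at a Pearson r of 0.85 and a Spearman rho of 0.74, where all points share the same 6 libraries and the low members rest on few reads. A like but smaller shift appeared over all genes. The median difference was -0.17 for the 5731 genes under 10 CPM and 0.04 for the 9215 at or above it. Against WT, all genes under 10 CPM had a median of 0.22 in KO1 and 0.02 in KO2. The 5 members under 10 CPM had medians of -0.35 in KO1 and -1.38 in KO2.

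The proteins of many members work in complexes whose other subunits, substrates or close relatives are encoded elsewhere, and these genes were not used in the choice of the stretch. Of 66 such genes in the files, 64 were tested. In KO1, 14 were lower than WT, 9 higher and 41 not called, where the shares over all genes were 9.53% lower and 12.4% higher. In KO2, 4 were lower, 6 higher and 54 not called, where the shares over all genes were 7.81% lower and 10.1% higher. The medians were -0.06 in KO1 and -0.01 in KO2, near 0 as over all genes. These counts were unstable. Without WT replicate 1 they were 3 lower and 5 higher in KO1, and without WT replicate 2 they were 7 lower and 4 higher. In KO2 they were 0 lower and 2 higher without either WT library or either KO2 library, and 7 lower and 11 higher without either KO1 library. The 9 that were called in the same direction in both clones, as were 9.07% of all genes, gave the 8 genes plotted here and named next with some others. Of these, the KO2 calls of Prkci, Urm1, Ppp3ca, Ppp3cb, Ran and Arfgef1 were each lost on leaving out any single KO2 or WT library. The KO1 calls of Prkci (adjusted p 0.113) and Ran (0.120) were lost without WT replicate 1, and that of Prkci also with the clones pooled.

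**Figure D4:**
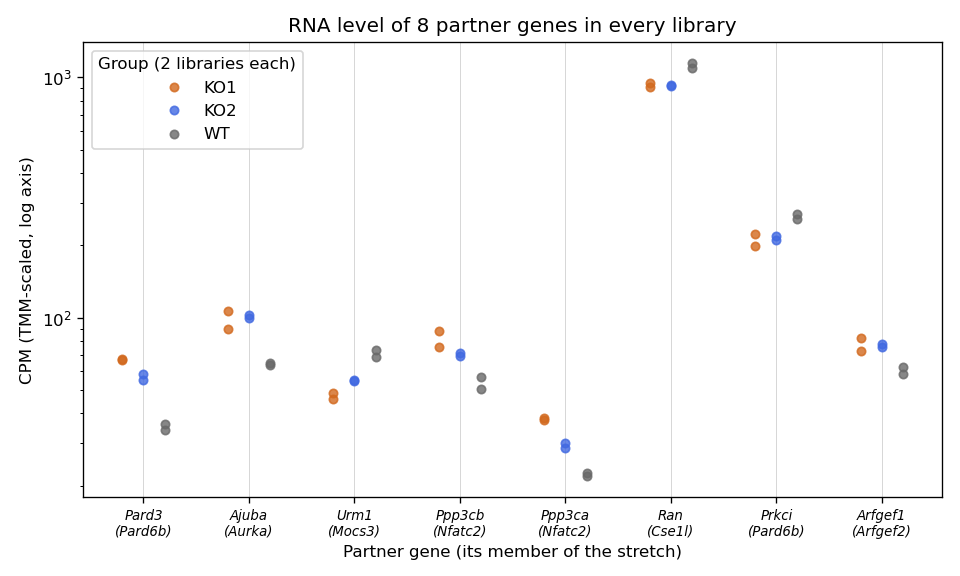
CPM on a log axis (y) of 8 partner genes called in the same direction in both clones (x, with the member each belongs to in brackets), with a point for each of the 2 libraries of KO1, KO2 and WT. Pard3, Ajuba, Ppp3cb, Ppp3ca and Arfgef1 stand higher in the knockout libraries than in WT, and Urm1, Ran and Prkci lower.

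Partners of the polarity scaffold Pard6b moved in both directions. Pard3, the scaffold that binds it, had 66.6 and 67.1 CPM in KO1, 58.3 and 55.0 CPM in KO2, and 34.0 and 36.3 CPM in WT. It rose by 0.93 ± 0.10 in KO1 (adjusted p 6.74e-06, edgeR) and by 0.69 ± 0.10 in KO2 (adjusted p 1.71e-04, edgeR), and no knockout library overlapped WT. Prkci, the atypical protein kinase C of the same complex, fell by 0.33 ± 0.08 in KO1 (adjusted p 0.00978, edgeR) and by 0.30 ± 0.08 in KO2 (adjusted p 0.0193, edgeR). Cdc42, the GTPase that binds Pard6b, had log2 fold changes of 0.02 in KO1 and -0.07 in KO2 and was not called.

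Ajuba, a LIM protein that activates Aurka, had 89.8 and 107 CPM in KO1, 103 and 99.8 CPM in KO2, and 63.3 and 64.9 CPM in WT. It rose by 0.62 ± 0.10 in KO1 (adjusted p 2.56e-04, edgeR) and by 0.66 ± 0.10 in KO2 (adjusted p 1.69e-04, edgeR), in 4 of 4 knockout libraries and under all 15 alternatives. Tpx2 and Bora, which also activate Aurka, were not called in either clone, at -0.19 and -0.13 in KO1 and at -0.04 and 0.03 in KO2.

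Urm1, the ubiquitin-like protein that receives sulfur from Mocs3, had 46.1 and 48.6 CPM in KO1, 54.4 and 54.9 CPM in KO2, and 68.5 and 73.5 CPM in WT. It fell by 0.59 ± 0.10 in KO1 (adjusted p 4.33e-04, edgeR) and by 0.38 ± 0.10 in KO2 (adjusted p 0.0127, edgeR). Mocs1, of the first step of the cofactor pathway, fell by 0.56 ± 0.13 in KO1 (adjusted p 0.00485, edgeR), with 0.06 ± 0.12 in KO2, and KO2 was higher than KO1 by 0.62 ± 0.13 (adjusted p 0.00340, edgeR). Mocs2 and Gphn, the later enzymes, were not called.

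The calcineurin subunits that act on Nfatc2 were higher. Ppp3ca rose by 0.77 ± 0.12 in KO1 (adjusted p 1.59e-04, edgeR) and by 0.40 ± 0.12 in KO2 (adjusted p 0.0252, edgeR), with 37.5 and 38.2 CPM in KO1, 30.1 and 28.7 CPM in KO2, and 22.6 and 21.9 CPM in WT. Ppp3cb rose by 0.60 ± 0.10 in KO1 (adjusted p 5.56e-04, edgeR) and by 0.38 ± 0.11 in KO2 (adjusted p 0.0173, edgeR). Ran, the GTPase that drives the export cycle of Cse1l, fell by 0.27 ± 0.07 in KO1 (adjusted p 0.0119, edgeR) and by 0.27 ± 0.07 in KO2 (adjusted p 0.0140, edgeR). The importins alpha and beta that Cse1l and Ran serve were not called, with log2 fold changes of -0.21 to 0.20 in KO1 and -0.11 to 0.02 in KO2 over Kpna1, Kpna2, Kpna3, Kpna4, Kpna6 and Kpnb1.

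Close relatives of some members are given here, and those of others are not named. Pard6g, a relative of Pard6b, had 0.46 ± 0.12 in KO1 (adjusted p 0.00850, edgeR) and 0.34 ± 0.12 in KO2, where it was not called. Rnf125, a relative of Rnf114, had -0.65 ± 0.20 in KO1 (adjusted p 0.0259, edgeR) and -0.44 ± 0.20 in KO2, where it was not called. Arfgef1, the relative of Arfgef2, rose by 0.36 ± 0.10 in KO1 (adjusted p 0.0150, edgeR) and by 0.34 ± 0.10 in KO2 (adjusted p 0.0247, edgeR), although Arfgef2 itself was near WT. In both clones these calls were lost when the clones were pooled and when either WT library was left out, and the KO1 call also without KO1 replicate 1. Stau2, the relative of Stau1, rose by 0.83 ± 0.24 in KO1 (adjusted p 0.0203, edgeR) and by 0.78 ± 0.24 in KO2 (adjusted p 0.0342, edgeR). Both calls were lost with DESeq2, with the clones pooled and without WT replicate 2, and the KO2 call also without WT replicate 1 or either KO2 library. B4galt6, which makes the same lipid as B4galt5, fell by 0.40 ± 0.08 in KO1 (adjusted p 0.00258, edgeR) and had -0.23 ± 0.08 in KO2. Ptpn2, the nearest relative of Ptpn1, was not called, at -0.02 in KO1 and -0.07 in KO2, nor was Ube2v2, the relative of Ube2v1, at -0.07 and -0.20. Among subunits of the prefoldin complex with Pfdn4, Pfdn6 fell by 0.55 ± 0.09 in KO1 (adjusted p 3.69e-04, edgeR) and Pfdn2 by 0.35 ± 0.09 in KO2 (adjusted p 0.0143, edgeR). Pfdn1, Pfdn5 and Vbp1 were not called in either clone, with log2 fold changes of -0.12 to 0.08.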

How the data were processed

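Gene counts of 6 of the series' 12 samples were used (2 libraries each of KO1, KO2 and WT), and 6 time course samples were left out. The deposited values are raw counts of reads per gene. Per the submitters' processing notes, mm10 was the build and the tools included DESeq2 1.18.1, HTSeq 0.9.1 and HISAT2 2.1.0. Annotation, strand setting and overlap rule were not stated in the sources used here, so overlapping and antisense genes cannot be told apart. The 5 summary entries of each file, among them 6.96% to 9.10% ambiguous and 15.6% to 16.6% multiply aligned reads, stayed out of library sizes and tests.

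Counts were fitted with edgeR 4.0.16 (R 4.3.3) as 3 groups, with TMM, filterByExpr, the two-sided quasi-likelihood test, and p-values adjusted by Benjamini-Hochberg over all 14946 tested genes at 0.05. Standard errors are the size of the log2 fold change over the root of F. Positions and exon lengths came from GENCODE M21 (GRCm38). Scripts were tested on simulated counts. Alternatives were DESeq2 1.42.0, other scalings and filters, the 4 libraries of a contrast alone, a replicate block, both clones pooled, and each library left out. The members and all gene lists were chosen with earlier results of these data known. All members are named. In full are those of highest level per role, at the ends, of smallest change and called between the clones, with partner genes called alike in both clones, at most 8. Genes named beyond that were chosen after their values were seen. Depth was 11976149 to 13923262 counts per library.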

Additional observations from a re-analysis of the deposited data

Results flagged for a closer look

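For 5 members the change against WT differed between the clones by a test of the difference itself, KO2 over KO1 in edgeR's quasi-likelihood test. On the log2 scale the differences were 0.47 for Zfp64, 0.34 for Aurka and 0.28 for Rnf114, all higher in 2 of 2 KO2 libraries, and -1.07 for Kcng1 and -1.03 for Nfatc2, both lower in 2 of 2 KO2 libraries. With 2 libraries a group, no library could be tested as standing apart from its group. The KO1 libraries of Zfp64 (81.8 and 102 CPM) and of Nfatc2 (3.65 and 5.37 CPM) were further apart than the KO2 libraries of the same genes (125 and 131 CPM, and 2.11 and 2.29 CPM).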

How the results depend on the processing

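Alternatives were run for the member and partner counts, the members, the 9 partner genes called alike in both clones and the 5 members called between the clones, and none of these called changes reversed; the other named partner calls and Cebpb between the clones were not rerun. Of the 20 members called lower in both clones, all 20 kept that call under 12 of the 15 alternatives; 18 did without KO2 replicate 2, 19 without WT replicate 1 and 18 without WT replicate 2. Over all alternatives 19 to 22 members were lower in KO1 and 19 to 23 in KO2. The 1 member higher in KO1 became 0 with DESeq2 and with both clones pooled (0 to 1 over single libraries left out). The member median in KO1 was -0.72 with upper quartile factors, -0.82 with a filter of 1 CPM and -0.81 with both clones pooled (-0.85 to -0.75 with a library left out); in KO2 it was -0.81 pooled (-0.82 to -0.75). Between the clones it was -0.04 with upper quartile factors, and 0.03 both with a filter of 1 CPM and with the 4 libraries alone (-0.03 to 0.04 with a library left out). Members lower in KO2 than in KO1 numbered 1 with DESeq2 and 1 with the 4 libraries alone; leaving out single libraries gave 0 to 3 lower and 1 to 4 higher.

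Partner genes in KO1 were 2 lower and 4 higher with both clones pooled (3 to 17 and 4 to 11 with a library left out). In KO2 they were 2 lower when pooled, and 7 lower and 10 higher with the 4 libraries alone (0 to 7 and 2 to 11). Between the clones 0 were lower with DESeq2, without a filter and with the 4 libraries alone (0 to 3 lower and 0 to 9 higher with a library left out). The cause of these shifts was not tested. The log2 difference of replicate 1 from replicate 2 was compared between groups across genes. Its correlation was 0.13 for KO1 and KO2, 0.05 for KO1 and WT and -0.01 for KO2 and WT. Replicate numbers are thus not shown to pair libraries. A replicate block gave 21 members lower in each clone, 7 partners lower in KO2 and 5 higher in KO2 than in KO1. Genes under 10 CPM rest on few reads and limit what could be called.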
